A study of Mus musculus with 12 samples.

Results

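The genes described here are 10 markers used for macrophages of adipose tissue: Adgre1, Mrc1, Cd68, Csf1r, Cd163, Trem2, Cd9, Clec10a, Folr2 and Ptprc. They were chosen by symbol, with the probe set of highest mean intensity where a gene had several, and all 10 were among the 22180 genes measured. In fat, 8 of them were far lower in isolated progenitors than in whole tissue, from 4.29-fold for Clec10a in the visceral depot to 30.6-fold for Mrc1 in the subcutaneous depot. Cd9 went the other way and was about 2-fold higher in progenitors. Trem2 showed no detectable difference between progenitors and tissue, and was the 1 member that passed the test between the depots.

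Macrophages are the main phagocytes resident in fat. They depend on signalling through the receptor kinase encoded by Csf1r, clear dead adipocytes and debris, and take up lipid. Resident macrophages that lie along vessels carry scavenger and lectin receptors such as those of Mrc1, Cd163 and Folr2, whereas macrophages that gather around dying adipocytes in obesity are known for Trem2 and Cd9. Ptprc encodes CD45, which marks nearly all leukocytes and not macrophages alone, and Cd9 is expressed in many cell types outside the blood lineage.

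RNA came from C57BL/6 mice, freshly isolated and with no treatment named in the labels, and was hybridised to 12 Affymetrix arrays with 3 biological replicates in each of 4 groups. The groups were adipose progenitors (AP) from perigonadal visceral fat (VAT), AP from inguinal subcutaneous fat (SAT), whole adipose tissue (AT) from VAT, and AT from SAT. AP were what remained of the stromal vascular fraction of several mice, the cells freed by enzymes, after magnetic beads had taken out lineage-positive blood cells and CD31-positive endothelial cells. AT was neither dissociated nor depleted, so isolation and cell composition cannot be told apart in any AP to AT difference. The labels give no age, sex or diet, and do not say which mice gave which replicate, so a p-value here reflects how these arrays vary within a group, which may be technical.

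Values are log2 RMA intensities, a log2 scale of probe set brightness on which a difference of 1 is a doubling. Intensities near 4.10 were treated as close to background, since 40% of probe sets had means at or below it. Precision is limited by having 3 arrays in a group. The labelled preparations were checked against markers: all 9 progenitor markers measured were higher in AP over both depots (median log2 difference 1.62), all 8 adipocyte markers were lower (median -4.96) and all 8 endothelial markers were lower (median -2.27). The 8 members that fell had AP group means between 4.14 and 5.84, and 1 of their 48 AP values, for Clec10a, lay under 4.10.

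The comparison of AP with AT asked which transcripts the progenitor preparation keeps or loses relative to its tissue. By limma over all genes, 8 of the 10 members fell and 1 rose in VAT, and the same 8 fell and the same 1 rose in SAT. Of all genes, 32.6% passed in VAT (16.8% as lower and 15.8% as higher in AP) and 32.4% in SAT (16.3% as lower and 16.1% as higher). The median member difference was -2.94 in VAT and -3.20 in SAT, beside a median over all genes of 0.03 in each depot. The same 8 were lower and Cd9 higher with no overlap between AP and AT in either depot. Of all genes, 20.4% in VAT and 21.1% in SAT were lower without overlap, and 20.5% in VAT and 23.5% in SAT were higher without overlap. In bulk samples, fewer cells of a type and less RNA per cell cannot be told apart.

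**Figure D1:**
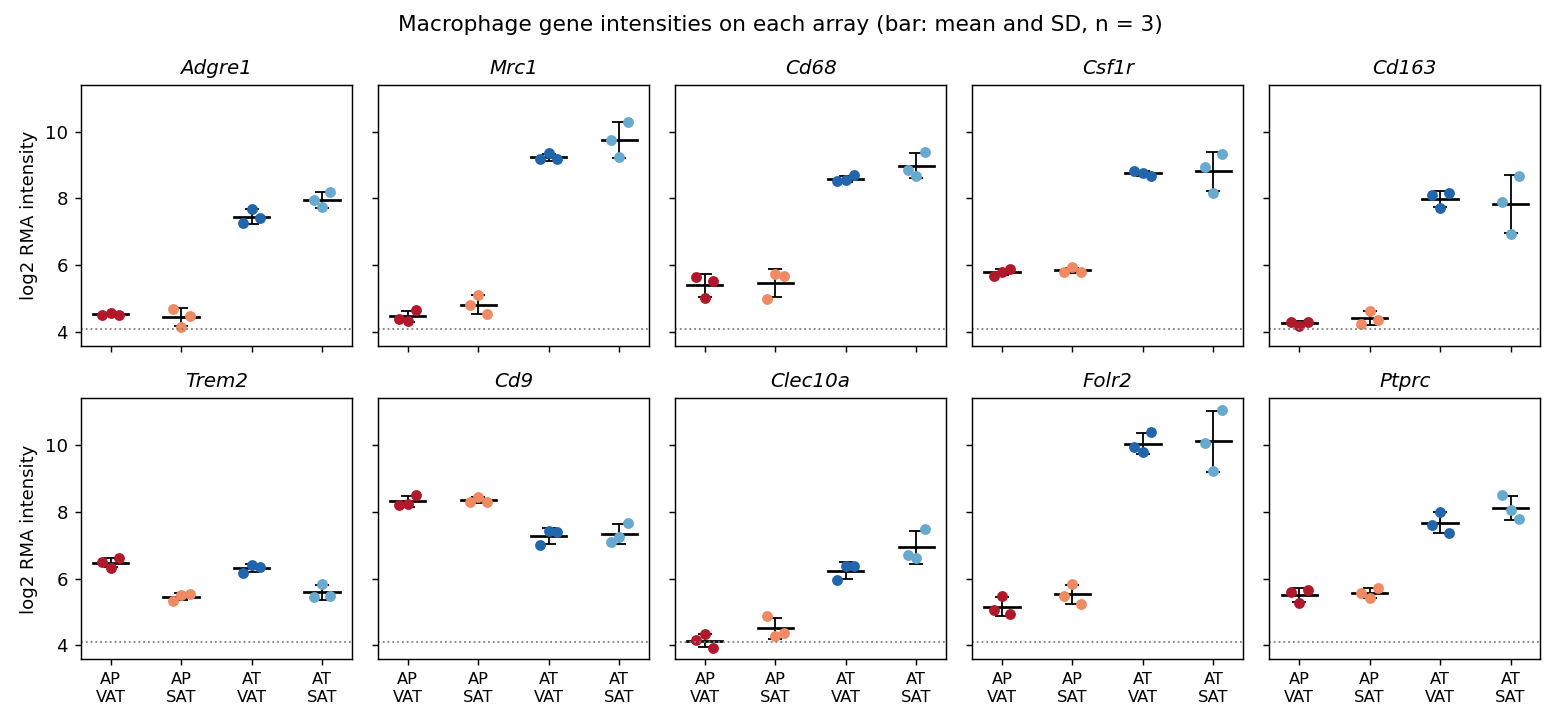
Log2 RMA intensity of each macrophage gene on each of the 12 arrays, by group, with 1 point per array, the mean and the SD (n = 3), and a dotted line at the near-background value of 4.10. The AP points lie below all AT points for 8 genes, above them for Cd9, and follow the depot for Trem2.

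Among the lectin and scavenger receptors of resident macrophages were the members with the largest falls, Mrc1 and Folr2. Mrc1, the mannose receptor CD206, read 4.39, 4.34 and 4.66 in AP from VAT, against 9.17, 9.36 and 9.19 in AT from VAT. In SAT it read 4.81, 5.12 and 4.53 in AP, against 9.74, 9.23 and 10.29 in AT. No AP value came within 4 log2 units of an AT value of its depot. The log2 difference was -4.78 (SE 0.21, adjusted p = 1.5e-10) in VAT and -4.93 (SE 0.21, adjusted p = 9.72e-11) in SAT by limma, so that AP intensity was 3.65% and 3.27% of AT intensity. Its AP values lay near the array medians of 4.49 to 4.67, which limits what these shares can show. Of all genes, 0.0992% had a lower difference than Mrc1 in VAT and 0.108% in SAT.

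Folr2, the folate receptor beta of resident macrophages, read 5.05, 5.47 and 4.93 in AP from VAT, against 9.95, 9.80 and 10.39 in AT from VAT. In SAT it read 5.49, 5.83 and 5.25 in AP, against 10.08, 9.22 and 11.05 in AT. The groups lay far apart in each depot, and the widest spread was that of AT from SAT (SD 0.916). The differences were -4.90 in VAT and -4.59 in SAT (SE 0.325 each), or 29.8-fold and 24.1-fold lower in AP. Cd163, the scavenger receptor for haptoglobin bound to haemoglobin, read 4.31, 4.18 and 4.30 in AP from VAT, against 8.09, 7.71 and 8.16 in AT from VAT. Its SAT values were 4.23, 4.63 and 4.37 in AP, against 7.88, 6.93 and 8.68 in AT. It fell by 3.72 in VAT and fell by 3.42 in SAT (SE 0.293 each), again with no overlap and with the 3 AT values from SAT spread over more than 1 log2 unit. Clec10a, the galactose-binding lectin CD301, averaged 4.14 ± 0.20 in AP from VAT and 6.24 ± 0.24 in AT from VAT (SD, n = 3 each). In SAT it averaged 4.51 ± 0.32 in AP and 6.93 ± 0.48 in AT (SD, n = 3 each). It fell by 2.10 in VAT and fell by 2.43 in SAT (SE 0.215 each), less than the other receptors of this group. Its AP mean in VAT was closer to the near-background value than any other member mean.

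Genes carried by macrophages of all kinds fell as well. Adgre1, which encodes the F4/80 antigen of mouse macrophages, read 4.51, 4.57 and 4.51 in AP from VAT, against 7.27, 7.69 and 7.42 in AT from VAT. In SAT its values were 4.68, 4.16 and 4.49 in AP, against 7.95, 7.73 and 8.19 in AT. It fell by 2.93 in VAT and fell by 3.51 in SAT (SE 0.15 each). Cd68, an endosomal and lysosomal glycoprotein of phagocytes, read 5.65, 5.01 and 5.53 in AP from VAT, against 8.53, 8.56 and 8.70 in AT from VAT. Its SAT values were 4.98, 5.75 and 5.68 in AP, against 8.85, 8.68 and 9.40 in AT. It fell by 3.20 in VAT and fell by 3.51 in SAT (SE 0.218 each). AP intensity of Adgre1 was 13.1% of AT intensity in VAT and 8.76% in SAT, and that of Cd68 10.9% and 8.80%.

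Csf1r, the receptor for the growth factors CSF1 and IL-34, read 5.69, 5.81 and 5.89 in AP from VAT, against 8.82, 8.77 and 8.67 in AT from VAT. In SAT it read 5.80, 5.94 and 5.79 in AP, against 8.93, 8.17 and 9.34 in AT. The AP values lay close together, while AT from SAT had an SD of 0.594. It fell by 2.96 in VAT and fell by 2.97 in SAT (SE 0.203 each). Ptprc read 5.59, 5.26 and 5.67 in AP from VAT, against 7.62, 8.01 and 7.38 in AT from VAT. Its SAT values were 5.57, 5.42 and 5.71 in AP, against 8.51, 8.07 and 7.79 in AT. It fell by 2.16 in VAT and fell by 2.56 in SAT (SE 0.185 each). AP intensity of this pan-leukocyte gene was 22.3% and 17.0% of AT intensity. Array medians were 4.49 to 4.67, and AP values near or below them limit what a share or fold can show. The AP means of Adgre1, Mrc1, Cd163 and Clec10a, at 4.14 to 4.82, lay nearest to these medians or below them. All 8 falls had an adjusted p of 1.6e-06 or less by limma in either depot. They held under each alternative processing and with each array left out in turn.

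**Figure D2:**
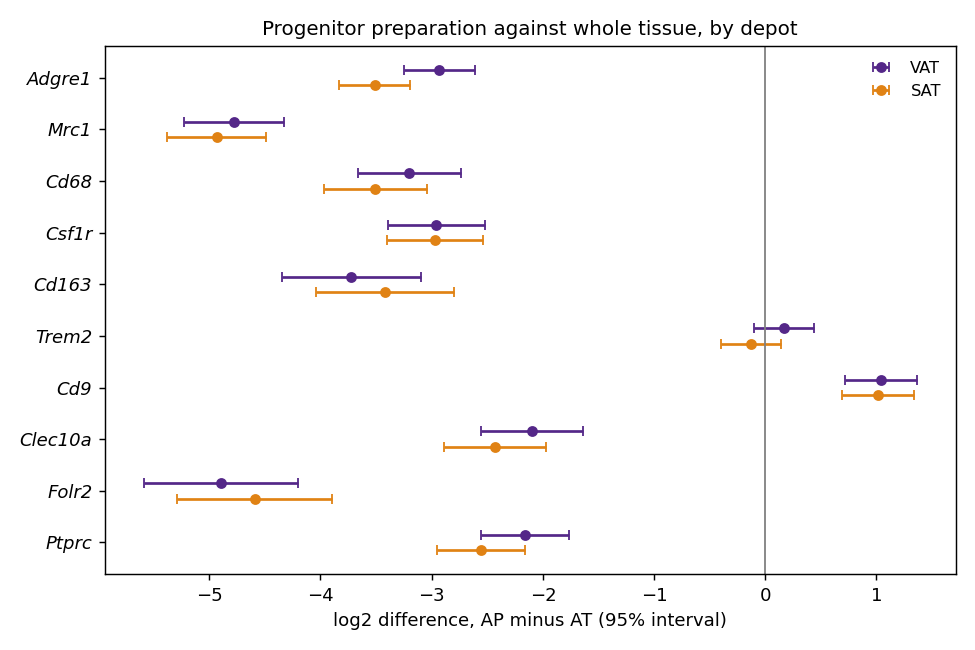
Log2 difference of each gene, AP minus AT, in VAT and in SAT, with the 95% interval of the limma fit; the vertical line marks no difference. The intervals of 8 genes lie below 0, those of Cd9 above 0, and those of Trem2 include 0.

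Cd9, a tetraspanin that organises membrane microdomains and adhesion, was higher in AP. It read 8.21, 8.24 and 8.51 in AP from VAT, against 7.01, 7.42 and 7.41 in AT from VAT. In SAT it read 8.31, 8.45 and 8.31 in AP, against 7.10, 7.26 and 7.67 in AT. Every AP value exceeded every AT value. It was higher by 1.04 in VAT (SE 0.152, adjusted p = 5.97e-05) and by 1.01 in SAT (SE 0.152, adjusted p = 6.88e-05) by limma, 2.06-fold and 2.02-fold. A second Cd9 probe set stayed dim in all groups, at 4.31 to 4.41 in AP and 4.19 to 4.60 in AT from VAT, and at 4.28 to 4.56 in AP and 4.06 to 4.31 in AT from SAT. Averaged over both probe sets, the rise was 0.54 in VAT and 0.655 in SAT, and still passed in both.

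The list set beside Cd9 held 8 other tetraspanins and Cd24a, a lipid-anchored glycoprotein that is no tetraspanin. Of these 9 genes, 3 rose and 4 fell over both depots (median -0.16), with Cd24a at -0.735 (SE 0.131) among those that fell. When arrays were scaled to housekeeping genes 5 rose and 2 fell (median 0.31). Under that scaling 17492 of 22180 genes rose and 1736 fell, with a median over all genes of 0.51. The leukocyte tetraspanins Cd53 and Cd37 fell by 2.20 (SE 0.122) and fell by 1.14 (SE 0.08). Cd63, found in late endosomes of many cell types, rose by 0.55 (SE 0.093), and Tspan4 by 0.32 (SE 0.108). Markers of other cell types also moved in the direction of Cd9. All 9 progenitor markers rose, with mean list intensities of 10.49 to 10.60 in AP and 8.61 to 9.01 in AT from VAT. The same held for 7 of 8 mast cell markers, at 6.01 to 6.27 in AP and 5.01 to 5.18 in AT from VAT. Of 8 mesothelial markers, 4 rose and 0 fell over both depots (median 0.32), beside 22% of all genes higher. The part of these cell types in the rise of Cd9 was not tested.

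Trem2, a lipid-sensing receptor of macrophages that signals through the adaptor encoded by Tyrobp, did not follow the other macrophage genes. It read 6.50, 6.33 and 6.61 in AP from VAT, against 6.17, 6.40 and 6.36 in AT from VAT. In SAT it read 5.34, 5.51 and 5.53 in AP, against 5.45, 5.85 and 5.47 in AT. AP and AT values overlapped in either depot. The difference was 0.17 in VAT (95% interval -0.10 to 0.44, adjusted p = 0.342) and -0.13 in SAT (95% interval -0.40 to 0.14, adjusted p = 0.505) by limma. These intervals do not include a fall of the size seen for any of the 8 genes above. When arrays were scaled to housekeeping genes the difference in VAT became 0.75 (adjusted p = 0.000429), beside a median of all genes of 0.61 under that scaling. Tyrobp itself fell by 2.44 over both depots (SE 0.114), while Trem2 was at 0.02 (SE 0.0893).

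The upstream sequences of 4 members are shown because they set 2 genes that fell together, Mrc1 and Cd68, beside Trem2 and Cd9, which did not fall. Each is the RefSeq window of 300 bases on GRCm38.p6, from 250 bases before the annotated start to 50 after it, on the gene's strand. Capitals mark GAGGAA, the core of the element bound by PU.1, the myeloid transcription factor encoded by Spi1, or its reverse complement TTCCTC.
Mrc1, chr2:14229164-14229463, plus strand: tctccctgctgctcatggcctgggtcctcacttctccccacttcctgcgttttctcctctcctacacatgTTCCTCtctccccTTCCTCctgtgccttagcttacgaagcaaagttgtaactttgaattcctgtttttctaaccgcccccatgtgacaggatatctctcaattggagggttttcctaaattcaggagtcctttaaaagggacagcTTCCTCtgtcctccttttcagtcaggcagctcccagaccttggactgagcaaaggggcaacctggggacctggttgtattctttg
Cd68, chr11:69666121-69666420, minus strand: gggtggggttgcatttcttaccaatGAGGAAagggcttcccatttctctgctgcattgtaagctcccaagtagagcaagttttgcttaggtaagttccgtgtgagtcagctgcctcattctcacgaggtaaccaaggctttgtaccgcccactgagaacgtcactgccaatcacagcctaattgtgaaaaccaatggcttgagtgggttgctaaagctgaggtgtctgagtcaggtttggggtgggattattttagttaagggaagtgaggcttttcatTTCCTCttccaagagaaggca
Trem2, chr17:48346151-48346450, plus strand: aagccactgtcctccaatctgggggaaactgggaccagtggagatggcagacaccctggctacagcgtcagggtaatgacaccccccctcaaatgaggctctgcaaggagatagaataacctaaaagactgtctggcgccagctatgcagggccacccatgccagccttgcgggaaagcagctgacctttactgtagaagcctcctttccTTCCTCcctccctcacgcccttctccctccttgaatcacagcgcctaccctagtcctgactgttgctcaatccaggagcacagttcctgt
Cd9, chr6:125494711-125495010, minus strand: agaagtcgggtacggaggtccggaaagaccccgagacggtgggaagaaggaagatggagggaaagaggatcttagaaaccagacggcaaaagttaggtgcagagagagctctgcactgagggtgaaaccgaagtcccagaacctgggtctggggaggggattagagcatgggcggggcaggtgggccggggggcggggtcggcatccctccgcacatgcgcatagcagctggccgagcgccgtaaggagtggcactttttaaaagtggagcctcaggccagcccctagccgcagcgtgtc

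The motif occurred 3 times in the Mrc1 window, 2 times in that of Cd68, 1 time in that of Trem2 and 0 times in that of Cd9. It also occurred 0 times in the windows of Cd163 and Folr2, which fell, so its presence did not follow the fall. Windows of 7 of the 10 members were counted, and 4 of these 7 held the motif, Ptprc in 1 of its 2 windows. Csf1r, which fell, was left out of this count, and Adgre1 and Clec10a had no window. In all, 28.3% of 32851 promoter windows hold the motif on either strand. The Cd9 window had 18 CG dinucleotides, against 3 for Mrc1, 4 for Cd68, 5 for Trem2 and a median of 7, and 29.7% of windows had at least as many as Cd9. These letters describe the sequence and no binding was measured.

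The comparison of VAT with SAT asked how depots differ within each preparation. In AP, 1 of the 10 members passed, Trem2, beside 5.64% of all genes (3.03% as higher in VAT). In AT, again Trem2 alone passed, beside 4.55% of all genes (2.8% as higher in VAT). Trem2 averaged 6.48 ± 0.14 in AP from VAT and 5.46 ± 0.10 in AP from SAT (SD, n = 3 each), a difference of 1.02 (SE 0.126, adjusted p = 8.9e-05 by limma), or 2.03-fold. It averaged 6.31 ± 0.12 in AT from VAT and 5.59 ± 0.23 in AT from SAT (SD, n = 3 each), a difference of 0.72 (SE 0.126, adjusted p = 0.00292 by limma), or 1.65-fold. Every VAT value exceeded every SAT value in either preparation, where 9.87% of all genes in AP and 10.9% in AT were higher without overlap. Of all genes, 99.1% in AP and 98.6% in AT had a lower value of this difference.

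Markers of the mesothelium, the lining of the abdominal organs and the outer face of visceral fat, moved with Trem2. All 8 were higher in VAT than in SAT in AP (median 3.55) and in AT (median 3.28). The mean intensity of that list was 8.36 to 8.78 in AP from VAT and 5.32 to 5.59 in AP from SAT, and it was 7.98 to 8.26 in AT from VAT and 5.17 to 5.50 in AT from SAT. The 5 genes whose intensities most resembled those of Trem2 over the 12 arrays, chosen after its values were seen, were Stmn2 (Pearson r = 0.975), Gpm6a (0.965), Upk1b (0.961), Upk3b (0.959) and Slpi (0.959). Gpm6a, Upk1b and Upk3b are on the fixed list of mesothelial markers. Stmn2, a microtubule-binding protein, averaged 7.09 in AP from VAT and 4.64 in AP from SAT, and 6.65 in AT from VAT and 5.20 in AT from SAT. Such a correlation describes arrays that fall into groups, and the part of the mesothelium in the Trem2 difference was not tested.

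For the other members the depots were closer together. In AP their differences lay between -0.37 for Folr2 and 0.09 for Adgre1, with groups that overlapped for all 9. In AT, 4 members were lower in VAT at an unadjusted p under 0.05 without passing the adjustment: Clec10a (-0.69, SE 0.215, adjusted p = 0.0918), Mrc1 (-0.51, SE 0.21, adjusted p = 0.233), Adgre1 (-0.50, SE 0.15, adjusted p = 0.0805) and Ptprc (-0.45, SE 0.185, adjusted p = 0.233), by limma. Clec10a read 5.96, 6.39 and 6.37 in AT from VAT, against 6.70, 6.61 and 7.49 in AT from SAT, so that its groups did not overlap, and neither did those of Adgre1, beside 7.26% of all genes lower in VAT without overlap. At the other end, Cd163 was at 0.16 (95% interval -0.47 to 0.78). The adjusted p of Adgre1 was 0.0469 without replicate 2 of AT from SAT and 0.0438 without replicate 2 of AT from VAT. That of Mrc1 was 0.0295 without replicate 2 of AT from SAT. With other arrays left out, the adjusted p by limma reached 0.271 for Adgre1, 0.596 for Mrc1, 0.295 for Clec10a and 0.62 for Ptprc. Scaling to housekeeping genes gave 0.0323 for Adgre1 and 0.0187 for Clec10a, and quantile normalization 0.0332 for Adgre1. Under other processing alternatives the adjusted p by limma reached 0.156 for Adgre1 and 0.181 for Clec10a. The median of the 10 members was -0.07 in AP and -0.23 in AT, beside 0 over all genes in either preparation to 2 decimals.

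**Figure D3:**
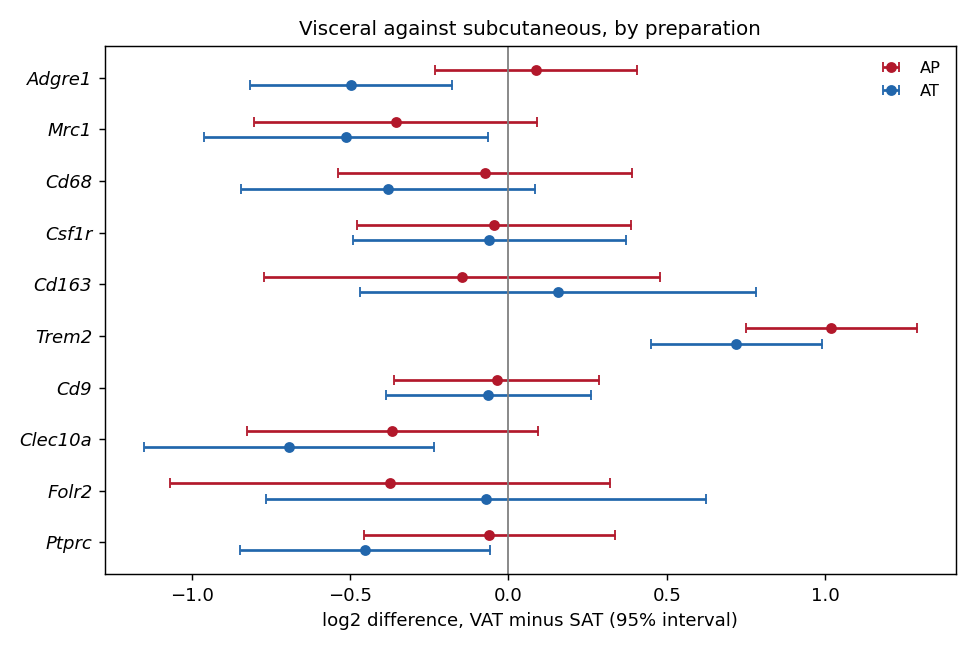
Log2 difference of each gene, VAT minus SAT, drawn for AP and for AT, with the 95% interval of the limma fit; the vertical line marks no difference. Trem2 lies above 0 in both preparations, and in AT the intervals of Adgre1, Mrc1, Clec10a and Ptprc lie below 0 without passing the adjusted test.

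The interaction, which subtracts the AT value of VAT minus SAT from the AP value, asked whether the loss of macrophage genes in AP depended on the depot. By limma 0 of the 10 members passed, beside 2.15% of all genes, and 1 member, Adgre1, came under an unadjusted threshold of 0.05 (0.58, SE 0.212, adjusted p = 0.213). None passed under any alternative either. For Trem2 the interaction was 0.30 (95% interval -0.08 to 0.68), so the data do not settle whether its depot difference is as large in AT as in AP. For Folr2 and Cd163 the intervals were wide, -1.29 to 0.68 and -1.19 to 0.58.

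Other genes of macrophage function fell with the members. Of 16 complement, Fc and phagocytic receptor genes, 15 fell over both depots and 0 rose, with a median of -2.30, and 42.5% of all genes passed there, 20.5% as lower and 22% as higher. The protease cathepsin S (Ctss) fell by 4.95 (SE 0.159) and lysozyme (Lyz2) fell by 4.76 (SE 0.174). Marco, a scavenger receptor named after its values were seen, was the member of that list that did not pass, at -0.06 (SE 0.0956). When scaled to housekeeping genes it was at 0.42 (adjusted p = 0.00154 by limma), beside a median over all genes of 0.51. Of 17 genes of resident and perivascular macrophages, 15 fell and 1 rose (median -2.39). The resistin-like Retnla fell by 6.63 (SE 0.32, with 3.86 in AP from VAT) and the transglutaminase subunit F13a1 fell by 4.90 (SE 0.203). Gas6, a ligand of the receptor kinase Mertk, rose by 0.62 (SE 0.123), although VAT alone gave -0.27 (SE 0.174).

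Genes of lipid-associated macrophages, the state known for Trem2 and Cd9, were more divided. Of 15 measured, 12 fell and 3 rose over both depots, with a median of -0.88, and -0.41 with 9 lower and 4 higher when scaled to housekeeping genes. Cd36, a fatty acid transporter that adipocytes and endothelium also express, fell by 3.42 (SE 0.0808). The part of adipocytes and other cell types in the falls of this list was not tested. Gpnmb, a transmembrane glycoprotein of lysosomes, rose by 2.59 (SE 0.196), at 8.88 in AP from VAT and 6.10 in AT from VAT, and at 9.81 in AP from SAT and 7.41 in AT from SAT. In AT, Gpnmb was lower in VAT than in SAT by 1.31 (SE 0.277, adjusted p = 0.0116 by limma), the opposite direction to Trem2. Among 9 transcription factors of the lineage 4 fell, led by Spi1 (-1.33, SE 0.124) and Irf8 (-0.58, SE 0.086), and 3 rose, led by Id2 (1.25, SE 0.118) and Cebpb (1.14, SE 0.0899). The median of that list was -0.18. Of all genes, 20.5% were lower and 22% higher there. When scaled to housekeeping genes 1 was lower and 6 higher, with a median of 0.29, and Irf8 no longer passed (-0.10, adjusted p = 0.412 by limma). Under that scaling 17492 of 22180 genes were higher and 1736 lower, and the median over all genes was 0.51.

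Of 10 ligand and receptor genes of macrophage growth and recruitment, 3 ligand genes rose and 4 receptor genes fell over both depots. Of all genes, 22% were higher and 20.5% lower there. While Csf1r fell, its ligand gene Csf1 rose by 2.16 over both depots (SE 0.148). Csf1 averaged 9.51 in AP from VAT and 7.59 in AT from VAT, and 10.09 in AP from SAT and 7.70 in AT from SAT. Its other ligand gene, Il34, rose by 1.02 (SE 0.0847). The chemokine gene Ccl2, which draws monocytes, rose by 3.26 (SE 0.204), while its receptor gene Ccr2 fell by 1.90 (SE 0.195) and the receptor subunit gene Csf2rb fell by 0.88 (SE 0.165). The other 3 did not pass: the ligand genes Csf2 (0.105) and Cx3cl1 (0.13) and the receptor gene Cx3cr1 (0.015), named after their values were seen. When scaled to housekeeping genes 6 rose and 3 fell, and Cx3cr1 was among those that rose (0.49, adjusted p = 0.000245 by limma). The 0.49 of Cx3cr1 lay below the median over all genes under that scaling, 0.51, where 17492 of 22180 genes rose and 1736 fell.

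**Figure D4:**
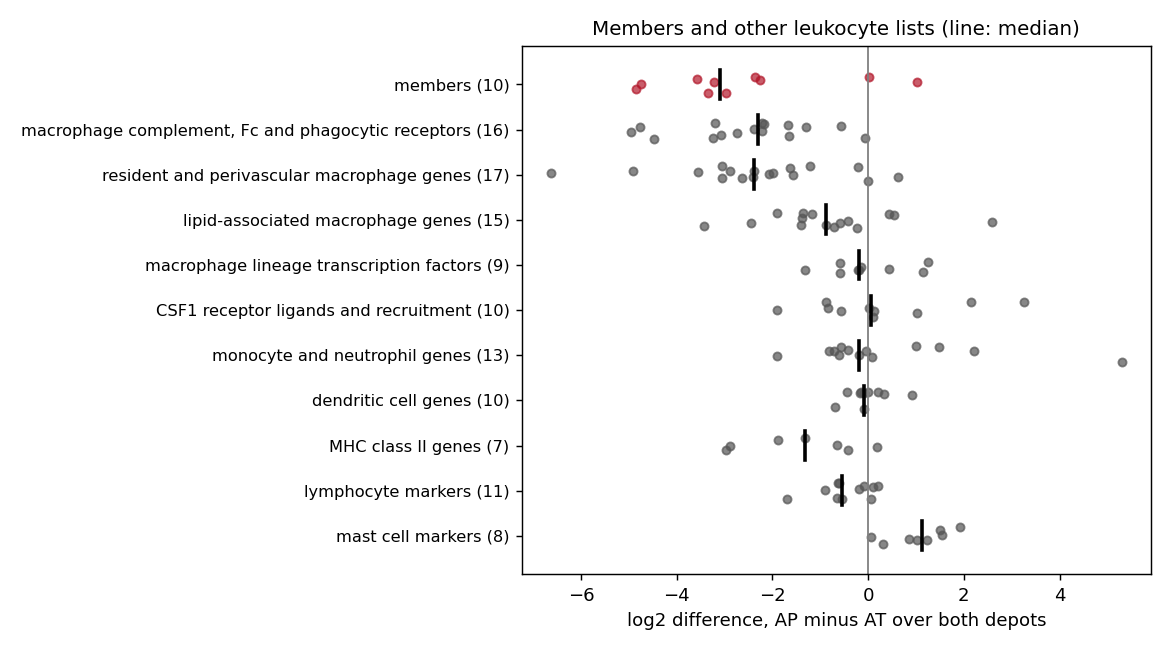
Log2 difference, AP minus AT over both depots, of each measured gene of the member list and of other leukocyte lists, with the number of genes in brackets and a line at each list's median. The members (median -3.09), the phagocytic receptor list (-2.30) and the resident macrophage list (-2.39) lie furthest to the left, and the mast cell list (1.12) to the right.

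The remaining leukocyte lists varied in direction, and differences between lists were not tested. Of 7 class II antigen presentation genes, which macrophages also carry, 6 fell and 0 rose (median -1.33), led by H2-Ab1 (-2.96, SE 0.147) and H2-Aa (-2.88, SE 0.141), and 4 fell and 1 rose when scaled to housekeeping genes. Of 11 lymphocyte markers 6 fell and 0 rose (median -0.55), with Cd3g at -1.69 (SE 0.312), whereas 4 rose and 1 fell when scaled to housekeeping genes. Of 13 monocyte and neutrophil genes 5 fell and 4 rose, and of 10 dendritic cell genes 2 fell and 2 rose. These shares of dendritic cell genes are near those of all genes, 20.5% lower and 22% higher. Medians of those 2 lists were -0.20 and -0.09. When scaled to housekeeping genes, 1 monocyte and neutrophil gene fell and 7 rose (median 0.275), and 0 dendritic cell genes fell and 8 rose (median 0.38). Under that scaling 17492 of 22180 genes rose and 1736 fell, and the median over all genes was 0.51, above both of these medians. Mast cell markers rose in 7 of 8 cases (median 1.12), led by the proteases Tpsb2 (1.92, SE 0.137) and Mcpt4 (1.54, SE 0.154).

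The genes whose intensities over the 12 arrays most resembled those of 4 members, by Pearson correlation and as a description, differed in kind. For Csf1r they were the ubiquitin ligase gene Wwp1 (r = 0.996), the integrin gene Itgam (0.996), C1qb (0.995), the chemokine gene Ccl6 (0.994) and properdin, Cfp (0.993). For Mrc1 they were C1qb (0.996), the lectin receptor gene Clec4a3 (0.996), Ccl6 (0.995), F13a1 (0.995) and the Fc receptor gene Fcgr2b (0.994). For Ptprc they were Apool (0.995), Dld (0.994), Ubr3 (0.994), Acacb (0.993) and Trit1 (0.993), which are not leukocyte markers. For Cd9 they were the matrix genes Col14a1 (0.988), Hspg2 (0.984) and Col6a1 (0.984), the lipoprotein receptor gene Lrp1 (0.987) and the integrin gene Itga9 (0.984). All these coefficients rest on the gap between AP and AT that the arrays share.

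Within groups, most members had their largest SD in AT from SAT. Adgre1 and Cd68 had theirs in AP from SAT (0.263 and 0.426, against 0.230 and 0.376 in AT from SAT). In AT from SAT, replicate 3 had the highest value of the group for 8 of 10 members, and replicate 2 the lowest for 7 of 10. The mean intensity of the 8 members that were lower in AP was 8.58 in replicate 1, 8.08 in replicate 2 and 9.03 in replicate 3 of AT from SAT, and 8.18 to 8.29 over the replicates of AT from VAT. The same mean was 4.87 to 4.93 in AP from VAT and 5.02 to 5.14 in AP from SAT. Ptprc did not share the pattern, and was lowest in replicate 3 of AT from SAT. Over replicates 1, 2 and 3 of AT from SAT, resident macrophage genes averaged 7.66, 7.27 and 8.31, progenitor markers 9.11, 8.88 and 9.82, lymphocyte markers 5.20, 5.30 and 4.65, and adipocyte markers 10.535, 10.675 and 10.62. Without replicate 2 of that group the difference of Folr2 in SAT was -5.04, and without replicate 3 it was -4.13. The part of cell composition in these deviations was not tested.

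**Figure D5:**
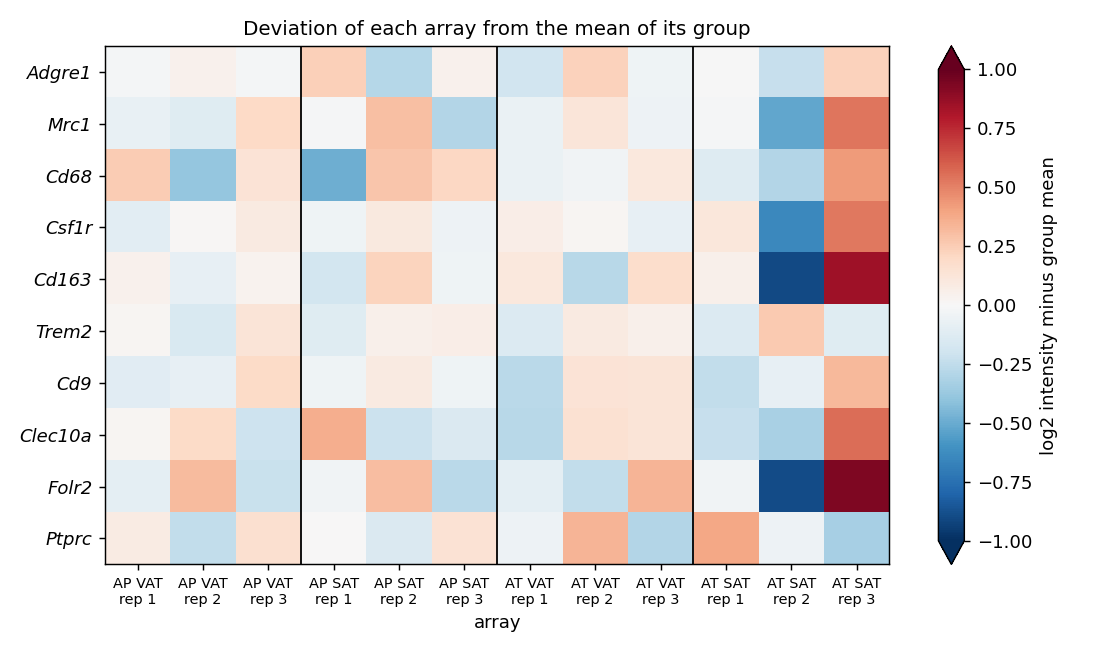
Deviation of each array from the mean of its group, in log2 units, for the 10 genes (rows) on the 12 arrays (columns, with black lines between groups). In AT from SAT, replicate 2 is low and replicate 3 high for most genes, with Ptprc and Trem2 apart from the rest.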

How the data were processed

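The deposited table holds log2 RMA intensities for 41345 probe sets, made by the authors with Affymetrix Expression Console 1.3.0.187, per the submitters' processing notes; its annotation library and genome build are not given in the sources used here. The base 2 of the log follows from the method and the range of 1.69 to 13.48. GEO's platform annotation gave 1 gene for 23521 probe sets, several for 1814 and none for 16010. Single-gene probe sets were kept, the one with the highest mean per gene, which left 22180 genes. The 10 members and the gene lists were chosen with earlier results of these data known.

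Values were fitted as deposited with limma 3.58.1 (R 4.3.3), giving each of the 4 groups its own mean over 12 arrays with a shared spread (8 residual and 6.84 prior degrees of freedom). Tests were 2-sided, adjusted by Benjamini-Hochberg over all genes of a contrast and called under 0.05. SE is that of the moderated fit and SD that of 3 replicates. Named genes are the members, up to 2 called rises and 2 called falls per list, and the 5 genes most correlated with Csf1r, Mrc1, Cd9 and Ptprc. Il34 over both depots, Marco and the neighbours of Trem2 were picked after their values were seen. Of the listed genes, those without a single-gene probe set were not analysed here. The fit was tested on simulated data. As alternatives, the replicate number entered as a block, the prior was trended and robust, only the compared groups were fitted, or values were normalized by cyclic loess or quantiles. Others were scaling to the median of housekeeping genes (11 of 13 measured), a filter on dim genes, the mean over probe sets, a demand for a log2 difference of 1, and each array left out. Same-numbered replicates of the groups compared correlated at -0.28 to 0.118 in their deviations, so the numbers were not taken to pair samples. Figures were drawn with matplotlib 3.10.9.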

Additional observations from a re-analysis of the deposited data

How the results depend on the processing

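Of 60 member differences, each tried under 20 or 21 alternatives, 0 called ones changed direction, and 1231 of 1240 trials stayed on their side of the threshold. The count of members called was 9 for AP against AT in SAT under all alternatives, and 9 or 10 in VAT and over both depots. For VAT against SAT in AT it was 1, and became 2 under quantile normalization, 3 when scaled to housekeeping genes, 0 with a log2 difference of at least 1, and 1 to 3 with 1 array left out. Trem2 was the member lost under that demand (0.72).

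Counts over all genes moved more. Scaled to housekeeping genes, 14193 genes were called in SAT, 18336 in VAT and 19228 over both depots, against 7186, 7239 and 9430; 87.7%, 93.4% and 91% of them were higher in AP, against 49.7%, 48.4% and 51.9%. The median of all genes then lay at 0.40, 0.61 and 0.51. Under that scaling 68.8% of calls were higher for VAT against SAT in AP, 38.1% in AT and 77.6% in the interaction, against 53.8%, 61.5% and 46%. A log2 difference of at least 1 left 2204, 1966 and 1986 genes, and 370 of 1250, 251 of 1009 and 221 of 476 for VAT against SAT in AP, in AT and the interaction. With the 2 groups alone 601 were called in AT. Leaving out 1 array gave 660 to 1026 in AT and 264 to 626 in the interaction.

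The replicate block changed no member count and gave 7013, 6968 and 9169 genes for AP against AT in SAT, in VAT and over both; 2, 0, 4 and 3 of 6 samples correlated best with their own number in the 4 group pairs. Dim AP values limit how far a fall can be measured.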

Other observations

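Some genes of the other leukocyte lists differed between the depots, where 5.64% of all genes passed either way in AP and 4.55% in AT. Of 13 monocyte and neutrophil genes 3 were lower in VAT than in SAT in AP and 2 in AT, and 0 were higher. Plac8 and Ly6c2, which are high in classical monocytes, were at -2.41 (SE 0.209) and -1.47 (SE 0.319) in AP and at -1.40 (SE 0.209) and -1.34 (SE 0.319) in AT. Both were higher in the lineage-depleted AP than in AT over both depots, Plac8 by 1.47 (SE 0.148) and Ly6c2 by 1.00 (SE 0.226). The list as a whole was divided there, with 4 of the 13 genes higher in AP and 5 lower. Nr4a1 (5.30, SE 0.303) and Ace (2.215, SE 0.168) rose most, and Ccr2 (-1.90, SE 0.195) fell most. Of 9 progenitor markers, 3 were lower in VAT in AP and 2 in AT, and 0 were higher, with medians of -0.23 and -0.35. Among them Pi16 was at -1.61 in AP and -1.57 in AT (SE 0.302 each), and Dpp4 at -1.35 in AP (SE 0.277). The part of progenitors in the values of Plac8 and Ly6c2 was not tested. Irf4, a transcription factor of lymphocytes, dendritic cells and adipocytes, was lower in VAT, at -1.92 in AP and -1.29 in AT (SE 0.274 each). Of 8 mast cell markers 4 were lower in VAT in AP and 5 in AT, and 0 were higher, with Mcpt4 at -1.41 and -1.72 (SE 0.218 each). Among resident macrophage genes in AT, Gas6 (1.33, SE 0.174) and Vsig4 (1.32, SE 0.249) were higher in VAT, and the chemokine gene Ccl8 (-1.96, SE 0.256) and Ms4a7 (-1.06, SE 0.198) were lower. Mertk, a receptor kinase for dead cells, was higher in VAT in AP (0.70, SE 0.121, adjusted p = 0.00179 by limma) and in AT (0.50, SE 0.121, adjusted p = 0.0265 by limma), the direction seen for Trem2. When scaled to housekeeping genes the phagocytic receptor list held 0 genes higher in VAT in AT, so Mertk did not pass there.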
